A study of Mus musculus and Rattus norvegicus with 28 samples.

Results

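Immediate early genes are transcribed within minutes of a stimulus, without new protein synthesis, and the 10 described here are those outside the AP1 family: the zinc finger transcription factors Egr1, Klf2, Klf4 and Klf6, the orphan nuclear receptor Nr4a1, the feedback regulators Dusp1, Zfp36 and Btg2, and the short immediate early response proteins Ier2 and Ier3. They were found by gene symbol in the transcript tables, and the level of a gene was the sum of FPKM (fragments per kilobase of transcript, scaled to the aligned fragments of the library) over its transcripts. All 10 were found among 55450 mouse genes and among 32623 rat genes. All 10 also passed the filter on low values, which kept a gene with 1 FPKM or more in 2 or more mouse libraries (3 or more in rat) and left 13979 mouse and 13625 rat genes. The rule is a list of symbols with no limit on any value, and the group was chosen with earlier results of these data known.

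The genes belong to a common response. Growth factor and stress signals reach the MAP kinases, which act on serum response factor (SRF) at CArG boxes, and cAMP and calcium signals reach CREB at cAMP response elements. The first wave of products then limits the response: Dusp1 dephosphorylates MAP kinases, Zfp36 promotes decay of AU-rich mRNAs and Btg2 restrains proliferation. In the heart, these genes respond to load, hormones and injury.

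Cardiomyocytes of C57BL/6 mice were collected at embryonic day 18.5 (E18.5) and at postnatal days 1, 3 and 7 (P1, P3 and P7), with 2 RNA-seq and 2 ATAC-seq libraries at each time point. Ventricular cardiomyocytes of neonatal Sprague-Dawley rats (NRVCs), taken on postnatal day 1, were plated and given DMSO, the solvent, or 100 nM trichostatin A (TSA), a histone deacetylase inhibitor, with 3 RNA-seq libraries each. Both sexes were used and no transgene or deletion is described for any group. All cells came from left ventricles digested overnight in cold trypsin and then in warm collagenase, after which cells that attached quickly were discarded by preplating. No group was taken without this isolation, so its part in the levels of these genes was not tested. The mouse cells were used directly after isolation and the rat cells after a period in culture. In the study's methods, rat cells were treated on the day after plating and collected days, not minutes, after treatment began. That procedure also transfected control or Mef2a siRNA, and the sample titles name no siRNA. Estimated depth was 29.3 to 37.5 M reads in mouse and 28.2 to 38.5 M in rat. The study's methods call its replicates biological, the labels do not tie libraries to litters or cultures, and p-values measure only the spread between these libraries.

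The sequences just before the transcript starts are shown for 5 of the genes that fell after birth and for Ier3. The RefSeq promoter table of GRCm38.p6, the assembly also called mm10, held 8 of the 10 genes, all but Egr1 and Ier2. The search covered 250 bases before to 50 bases after each start, on both strands, for the CArG box, the cAMP response element TGACGTCA, the AP1 site TGANTCA, the EGR site GCGNGGGCG, the MEF2 site and the NF-kB site. The 250 bases before the start are given 5′ to 3′ for Zfp36 (chr7:28379229-28379478, minus strand), Dusp1 (chr17:26508473-26508722, minus strand), Btg2 (chr1:134079156-134079405, minus strand), Nr4a1 (chr15:101266596-101266845, plus strand), Klf4 (chr4:55532476-55532725, minus strand) and Ier3 (chr17:35821463-35821712, plus strand). The first 5 passed the test of a fall on P1, P3 or P7, and Ier3 is shown because it did not in the limma fit on FPKM and was highest on P7. Capitals mark matches to a searched motif.
Zfp36: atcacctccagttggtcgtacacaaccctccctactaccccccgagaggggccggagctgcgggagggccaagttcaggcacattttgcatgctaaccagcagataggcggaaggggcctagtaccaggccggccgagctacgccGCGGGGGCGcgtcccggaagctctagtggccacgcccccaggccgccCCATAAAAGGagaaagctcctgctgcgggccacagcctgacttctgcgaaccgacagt
Dusp1: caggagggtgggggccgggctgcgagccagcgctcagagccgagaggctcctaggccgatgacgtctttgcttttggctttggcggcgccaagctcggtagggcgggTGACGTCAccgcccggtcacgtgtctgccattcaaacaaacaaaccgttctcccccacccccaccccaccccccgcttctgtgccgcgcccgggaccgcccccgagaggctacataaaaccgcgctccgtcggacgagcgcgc
Btg2: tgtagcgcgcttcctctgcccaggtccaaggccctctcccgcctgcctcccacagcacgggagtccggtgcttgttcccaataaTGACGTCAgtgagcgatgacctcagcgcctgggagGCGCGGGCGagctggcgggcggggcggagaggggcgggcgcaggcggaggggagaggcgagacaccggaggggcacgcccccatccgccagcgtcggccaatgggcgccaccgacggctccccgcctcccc
Nr4a1: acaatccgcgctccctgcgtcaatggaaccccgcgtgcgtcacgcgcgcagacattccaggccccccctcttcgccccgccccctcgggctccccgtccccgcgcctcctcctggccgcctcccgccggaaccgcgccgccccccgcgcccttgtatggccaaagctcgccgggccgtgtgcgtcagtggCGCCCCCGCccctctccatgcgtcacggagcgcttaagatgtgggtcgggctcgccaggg
Klf4: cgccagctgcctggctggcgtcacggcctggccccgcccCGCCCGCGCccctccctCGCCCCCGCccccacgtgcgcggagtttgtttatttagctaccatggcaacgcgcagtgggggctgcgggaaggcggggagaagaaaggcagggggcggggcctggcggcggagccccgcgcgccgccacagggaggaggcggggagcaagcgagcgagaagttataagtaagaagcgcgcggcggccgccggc
Ier3: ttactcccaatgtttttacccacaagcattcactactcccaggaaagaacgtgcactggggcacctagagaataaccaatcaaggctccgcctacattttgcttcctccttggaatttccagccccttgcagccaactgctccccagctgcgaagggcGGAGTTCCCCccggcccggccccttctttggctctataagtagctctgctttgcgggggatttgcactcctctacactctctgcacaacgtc

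The Zfp36 window held a CArG box at bases 58 to 49 before the RefSeq start, and 1.63% of all 32851 promoters in the table held one. That RefSeq start lies inside a longer annotated transcript of Zfp36. A complete cAMP response element lay 143 to 136 bases before the start of Dusp1 and 166 to 159 bases before that of Btg2, against 1.79% of all promoters. EGR sites lay in the windows of Nr4a1, Zfp36, Btg2, Klf2 and Klf4, 5 of 8 against 5.55% of all promoters, and Klf4 held 2 of them. The capitals in Ier3 are an NF-kB site 92 to 83 bases before the start, a motif that 8.46% of promoters held and that Nr4a1 also matched across its start. Klf2 held the only MEF2 site, 118 to 109 bases before the start (3.19% of all promoters), and none of the 8 held the AP1 site (7.81%). Klf6, which passed as a fall on P1 and whose window is not shown, matched none of the searched motifs. Matches of different motifs did not overlap each other. The 8 windows had a GC content of 54% to 74.3% and 10 to 40 CpGs, against medians of 52.7% and 7 over the table. A match is a description of letters in the window.

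The levels of all 10 genes were higher in both E18.5 libraries than in both P1 libraries and than in both P3 libraries. Over all genes tested, 26.0% were lower without overlap on P1 and 28.4% on P3. In the limma fit, 7 of the 10 fell on P1, where 6.06% of all genes fell, 7 fell on P3 (8.88% of all genes) and 5 fell on P7 (12.3% of all genes), at an adjusted p below 0.05 and a log2 difference beyond 1. At P7, 9 of the 10 were lower in both libraries than at E18.5, against 32.7% of all genes, and Ier3 was higher in both. The median log2 difference of the 10 genes was -1.51 on P1, -1.35 on P3 and -1.10 on P7, and that of all genes tested was 0.15, 0.16 and 0.14. These 3 comparisons share the E18.5 libraries. Median-of-ratios scaling moved the median of all genes to -0.01 on P1, and TPM moved it to 0.38. The share of all calls that were rises was 62.5% on P1, against 45.7% and 77.3% under these scalings. At P3 it was 59.4% against 45.7% and 74.4%, and on P7 55.7% against 45.5% and 68.1%. Under every scaling the 10 genes kept a negative difference on P1 and P3, and 9 of them on P7.

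**Figure D1:**
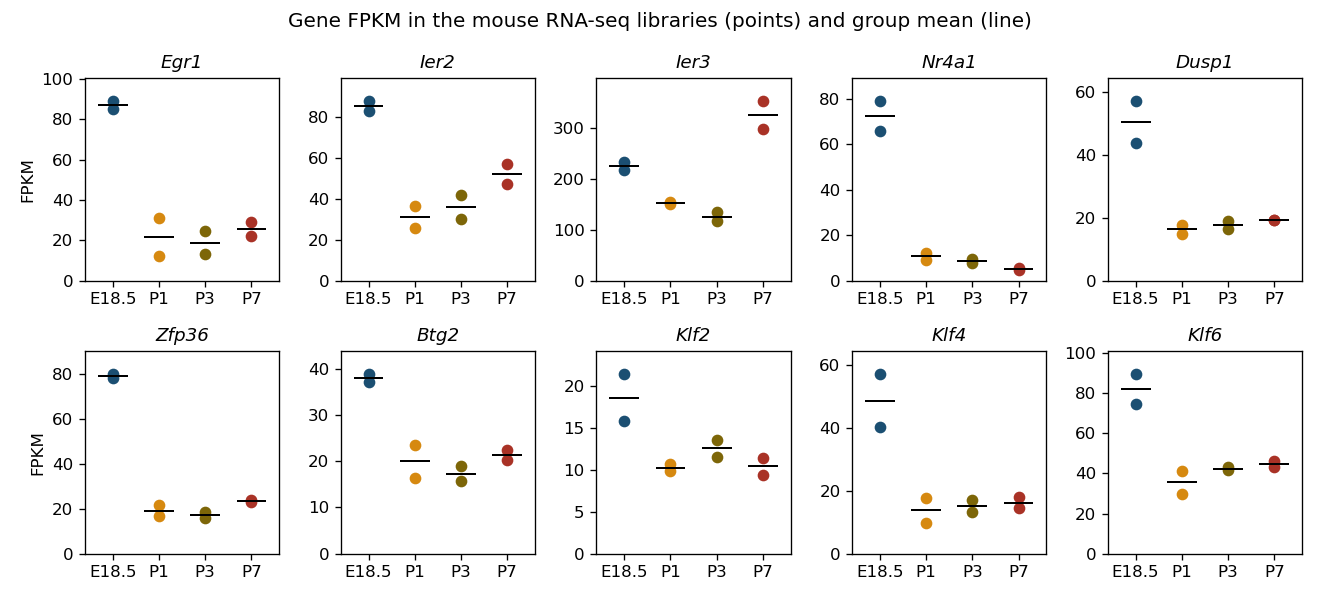
Gene FPKM (vertical axes, linear from 0, scaled separately for each gene) in the 2 mouse RNA-seq libraries of each time point; points are libraries and lines are group means. The E18.5 points lie above those of P1 and P3 for all 10 genes, and Ier3 has its highest points, 299.4 and 354.1, on P7.

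Among the transcription factors, Nr4a1 (ENSMUSG00000023034.7, chr15:101254269-101274795, plus strand), an orphan nuclear receptor, had the lowest postnatal levels relative to E18.5. Its FPKM was 79.2 and 66.0 at E18.5, 12.1 and 9.27 on P1, 9.48 and 7.82 on P3, and 5.32 and 4.74 on P7. The libraries of E18.5 were apart from all others, P1 and P3 overlapped, and P7 lay below both. The mean was 6.79-fold lower on P1, 8.39-fold lower on P3 and 14.4-fold lower on P7 than at E18.5. On the log2(FPKM + 1) scale the differences were -2.66 ± 0.18 (SE), -2.93 ± 0.18 and -3.61 ± 0.18, with limma adjusted p of 5.8e-05, 2.6e-05 and 8.19e-06. The transcript that begins at position 101266846 carried 91.9% of the gene's FPKM on average.

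Egr1 (ENSMUSG00000038418.7, chr18:34859823-34864984, plus strand), a zinc finger factor induced through SRF, had an FPKM of 89.2 and 85.3 at E18.5, 12.0 and 31.2 on P1, 12.9 and 24.6 on P3, and 22.3 and 29.0 on P7. The P1 libraries were the farthest apart, and no postnatal library reached the E18.5 level. The log2 difference from E18.5 was -2.11 ± 0.42 on P1, -2.22 ± 0.42 on P3 and -1.74 ± 0.42 on P7 (adjusted p of 0.00538, 0.00321 and 0.00824). The mean was 4.04-fold lower on P1 and 3.41-fold lower on P7. The P1 difference was -1.45 without replicate 1 of P1 and -2.76 without replicate 2 of P1. P1, P3 and P7 could not be put in order, since the libraries of P7 and P1 and those of P1 and P3 overlapped.

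The 3 Kruppel-like factors, which bind GC-rich and CACCC sequences, differed among themselves. Klf4 (ENSMUSG00000003032.8, chr4:55527143-55532466, minus strand), known for its part in stem cells and vascular cells, had an FPKM of 40.2 and 57.1 at E18.5, 17.7 and 9.82 on P1, 17.1 and 13.1 on P3, and 17.8 and 14.5 on P7. It fell on each postnatal day, with log2 differences of -1.78 ± 0.28 on P1, -1.61 ± 0.28 on P3 and -1.52 ± 0.28 on P7 (adjusted p of 0.00209, 0.00234 and 0.00244). Klf6 (ENSMUSG00000000078.7, chr13:5861482-5870394, plus strand), a broadly expressed factor, had 89.8 and 74.6 at E18.5, 41.2 and 29.8 on P1, 41.8 and 43.1 on P3, and 43.5 and 46.3 on P7. It passed the test on P1 only, with a log2 difference of -1.20 ± 0.17, against -0.93 ± 0.17 on P3 and -0.85 ± 0.17 on P7. The fall of Klf6 on P1 was lost without replicate 2 of P1 and under TPM, where it was -0.97 in either case, and P3 passed without replicate 2 of E18.5 (-1.06). Under median-of-ratios scaling Klf6 passed on all 3 days, at -1.40, -1.15 and -1.03. Klf2 (ENSMUSG00000055148.7, chr8:72319033-72321656, plus strand), known from endothelial cells and lymphocytes, had 15.8 and 21.4 at E18.5 and between 9.34 and 13.6 in the postnatal libraries. Its log2 differences of -0.79 ± 0.18, -0.52 ± 0.18 and -0.77 ± 0.18 on P1, P3 and P7 had adjusted p of 0.0107, 0.0463 and 0.00788 but stayed under the limit on size.

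Of the feedback regulators, Zfp36 (ENSMUSG00000044786.6, chr7:28376784-28380253, minus strand), which binds AU-rich elements in mRNA, had an FPKM of 80.0 and 77.9 at E18.5, 16.7 and 21.6 on P1, 15.9 and 18.4 on P3, and 22.8 and 23.9 on P7. The E18.5 libraries agreed closely, P1 and P3 overlapped, and P7 lay between. The log2 difference was -2.0 ± 0.15 on P1, -2.14 ± 0.15 on P3 and -1.71 ± 0.15 on P7 (adjusted p of 8.57e-05, 4.49e-05 and 5.52e-05), or 4.13-fold, 4.59-fold and 3.38-fold lower. Gm44710, annotated on the opposite strand over part of Zfp36, had at most 1.93 FPKM, and the sources used here do not state a stranded count, so reads of the pair cannot be told apart.

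Dusp1 (ENSMUSG00000024190.7, chr17:26505590-26562128, minus strand), the MAP kinase phosphatase, had 43.8 and 57.2 at E18.5, 14.9 and 17.7 on P1, 16.5 and 18.8 on P3, and 19.3 and 19.1 on P7. All 6 postnatal libraries lay within 14.9 to 19.3. The log2 differences were -1.57 ± 0.16, -1.45 ± 0.16 and -1.34 ± 0.16 (adjusted p of 0.000335, 0.000308 and 0.000278). The long span of the gene comes from annotated transcripts that begin at positions 26562128 and 26561499 and had at most 0.14 FPKM, and the opposite-strand gene Ergic1 overlaps that far end.

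Btg2 (ENSMUSG00000020423.6, chr1:134075170-134079120, minus strand), an antiproliferative partner of the deadenylase complex, had 38.9 and 37.1 at E18.5, 16.4 and 23.6 on P1, 15.6 and 18.9 on P3, and 20.2 and 22.4 on P7. It lay just at the limit on size, with log2 differences of -0.92 ± 0.18 on P1, -1.10 ± 0.18 on P3 and -0.81 ± 0.18 on P7, of which P3 passed. Without replicate 1 of P3 that call was lost (-0.97), as it was under TPM (-0.88), and the P1 difference passed without replicate 2 of P1 (-1.16) and under median-of-ratios scaling (-1.11).

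The 2 Ier genes parted after birth. Ier2 (ENSMUSG00000053560.4, chr8:84661331-84662852, minus strand), a short nuclear protein, had an FPKM of 87.8 and 82.8 at E18.5, 25.7 and 36.5 on P1, 29.9 and 41.8 on P3, and 47.2 and 56.8 on P7. It fell on P1 (-1.45 ± 0.21, adjusted p = 0.00136) and on P3 (-1.25 ± 0.21, adjusted p = 0.00194), and on P7 the difference of -0.71 ± 0.21 did not pass. Ier3 (ENSMUSG00000003541.6, chr17:35821684-35822923, plus strand), known for its role in cell survival and NF-kB signaling, was the most abundant of the 10 in every mouse library. Its FPKM was 218.7 and 232.7 at E18.5, 155.6 and 150.01 on P1, 116.9 and 134.7 on P3, and 299.4 and 354.1 on P7, so that no 2 time points overlapped. Its log2 differences from E18.5 were -0.56 ± 0.13, -0.84 ± 0.13 and 0.53 ± 0.13 on P1, P3 and P7, none past the limit on size. Under median-of-ratios scaling the P3 difference of Ier3 passed as a fall (-1.06).

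**Figure D2:**
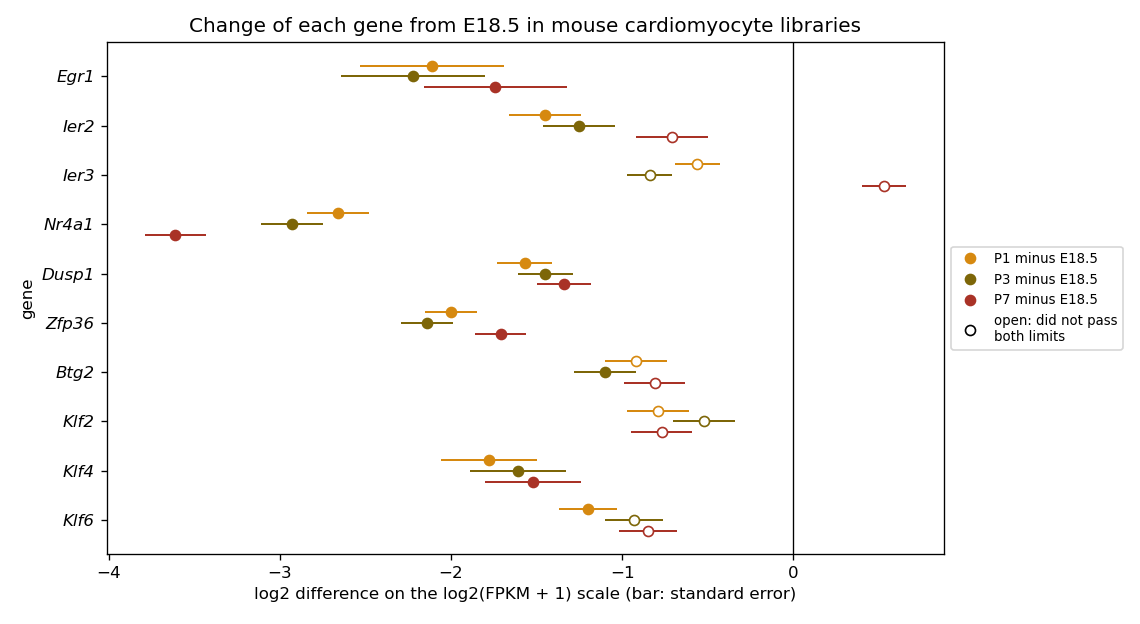
Log2 difference of each gene from E18.5 (horizontal axis, log2(FPKM + 1) scale, negative is lower than E18.5) on P1, P3 and P7, with standard errors from the limma fit; filled points passed both limits. Nr4a1 lies farthest to the left at each time point, and Ier3 on P7 is the only point to the right of 0.

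Between P1 and P7, Ier3 was the only gene of the 10 to pass the test. It rose by 1.09 ± 0.13 on the log2 scale (adjusted p = 0.00142, limma), against 3.45% of all genes that rose and 5.46% that fell, and the call was lost without replicate 2 of P7, at 0.97. Nr4a1 went the other way, with a difference of -0.95 ± 0.18 (adjusted p = 0.00844) that stayed under the limit on size. It passed that limit with a pseudocount of 0.1 (-1.06), with limma-voom (-1.08), without replicate 2 of P1 (-1.12) and without replicate 1 of P7 (-1.02). Ier2 had a difference of 0.74 ± 0.21 (adjusted p = 0.0452). The other 7 genes had differences of 0.01 to 0.37 with adjusted p of at least 0.211.

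Across the 8 mouse libraries, the scaled profiles of the genes had a median Pearson r of 0.84 over 45 pairs, which share their libraries and depth. Dusp1 and Zfp36 had an r of 0.98, and Egr1 and Btg2 one of 0.99. Ier3 was the least similar gene for each of the 9 others, from 0.01 with Nr4a1 to 0.61 with Ier2. The genes outside the group whose profiles were most like the mean scaled profile were Gbp4, Cpa1, Hspa1b, Dgat2 and Fmod, with an r of 0.991 to 0.993. Hspa1b encodes an inducible HSP70 chaperone.

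Other genes of the response were counted from lists. Of 28 other immediate early genes, 12 fell and 1 rose on P1, where 10.1% of all genes rose, with a median log2 difference of -0.89. At P3 11 fell and 1 rose (13.0% of all genes rose), and on P7 9 fell and 3 rose (15.4% of all genes rose). Gadd45b, a stress response gene, fell from a mean FPKM of 273.8 at E18.5 to 33.8 on P1 (-2.99 ± 0.22, adjusted p = 7.73e-05), and Arc, Gadd45a and Nfkbia, the inhibitor of NF-kB, fell with differences of -2.45, -2.15 and -1.74. Cebpb, a C/EBP transcription factor, rose by 1.12 ± 0.23 on P1 and by 1.75 ± 0.23 on P7. The other genes of the list with the largest differences on P7 were Gadd45b, Arc and Csrnp1, which fell, at -3.31, -2.72 and -1.72. Nfkbia and Irf1 rose between P1 and P7, by 1.45 ± 0.14 and 1.10 ± 0.25.

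Of the 22 tested relatives within the same families, 10 fell and 1 rose on P1, 8 fell and 1 rose on P3, and 7 fell on P7. Nr4a2, a paralog of Nr4a1, fell from 9.55 to 0.868 FPKM on P1 (-2.49 ± 0.17, adjusted p = 5.92e-05), and Klf11, Dusp2 and Egr3 fell with differences of -1.93, -1.92 and -1.87. Dusp4, a MAP kinase phosphatase, was the one that rose (1.09 ± 0.26). Dusp6, Zfp36l2, Klf3, Klf7 and Klf13 had differences of -0.09 to 0.19 on P1 with adjusted p of at least 0.488. Of the 8 AP1 genes, 5 fell on P1, 6 on P3 and 4 on P7, where 1 rose, with Fosb, Fos, Atf3 and Jun at -4.78, -4.40, -3.71 and -2.38 on P1.

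Taken as a list, the upstream genes did not share that direction in RNA level. Of 17 genes for SRF, its cofactors, MEF2 and the MAP kinases, none passed the test on P1 in limma, where 8 had an unadjusted p below 0.05 and limma-voom called 2. On the later days 3 rose on P3, and 5 rose and 2 fell on P7, with medians of 0.27, 0.36 and 0.24. The kinase genes Mapk14 and Map2k1 rose on P7 by 2.01 ± 0.14 and 1.42 ± 0.14, and Elk3, an SRF cofactor, rose by 1.66 ± 0.27. The 2 that fell were Mef2c and Mef2d, at -1.40 ± 0.18 and -1.12 ± 0.15. Srf and Mef2a were also lower on P7, at -0.73 ± 0.15 and -0.90 ± 0.13 (limma adjusted p of 0.00325 and 0.000652), under the limit on size. In all, 6 of the 17 had a negative difference on P7. Of 10 heat shock genes, 4 fell on P1, 4 on P3 and 3 on P7. Hspa1a and Hspa1b had mean FPKM of 352.2 and 345.7 at E18.5 and 9.73 and 12.7 on P1.

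Markers of cell types moved over the same time points, and their part in the results was not tested. The summed FPKM of 10 cardiomyocyte markers was 22623 to 29331 at E18.5, 10946 to 18347 on P1, 6753 to 7415 on P3 and 866.9 to 1908 on P7, with no marker at 0. Of these, 3 fell on P1, 8 on P3 and 10 on P7, and all 10 fell from P1 to P7. The sum of 8 fibroblast markers was 432.5 to 441.7 at E18.5, 1144 to 1378 on P1, 1542 to 1545 on P3 and 2907 to 3629 on P7, with 6, 6 and 8 of them rising from E18.5. The 6 erythroid markers, which include the hemoglobin genes, summed to 29044 and 35391 in the E18.5 libraries and to 4.70 to 41.0 in the postnatal ones, and all 6 fell at each time point. The 10 most abundant genes took 20.2% to 20.3% of TPM at E18.5 and 6.69% to 11.6% later.

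The summed FPKM of the 10 immediate early genes was 783.3 to 792.1 at E18.5, 323.0 to 339.3 on P1, 287.8 to 334.9 on P3 and 509.3 to 580.1 on P7. Of 8 endothelial markers, which bear on Klf2 and Klf4, 2 fell and 1 rose on P1, with sums of 247.4 to 456.2 at E18.5 and 280.9 to 296.8 on P1. They summed to 428.8 to 488.5 on P3, where 2 fell and 2 rose, and to 330.0 to 384.0 on P7, where 2 fell and 1 rose. Of the 7 macrophage markers tested, 1 fell and 1 rose on P1 and on P7 and 3 rose on P3, and the sum of the 8 listed went from 54.5 to 58.9 at E18.5 to 116.2 to 189.6 later. Of 7 smooth muscle and pericyte markers, 2 rose and 1 fell on P1 and on P3 and 4 rose and 1 fell on P7, and their sum went from 399.6 to 520.2 at E18.5 to 1652.9 to 1859 on P7. In these bulk libraries fewer cells of a type and less RNA per cell cannot be told apart.

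**Figure D3:**
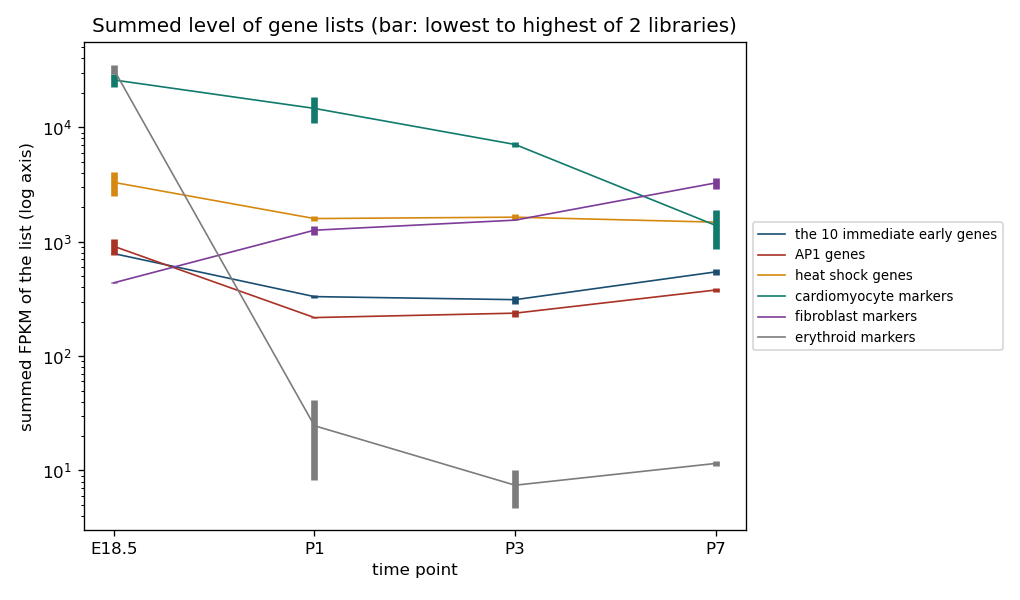
Summed FPKM of 6 gene lists (vertical axis, logarithmic) by time point; bars span the lowest to the highest of the 2 mouse libraries and lines join their midpoints. The 10 immediate early genes lie at 783.3 to 792.1 at E18.5 and at 287.8 to 580.1 later, while cardiomyocyte markers decline and fibroblast markers climb at each step.

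Chromatin at the starts of the genes was read from the ATAC-seq peak lists, where a peak is a stretch with more transposase cuts than its surroundings. A peak within 2.5 kb of an annotated transcript start was found in both libraries for all 10 genes at E18.5 (56.7% of all genes tested), for 9 on P1 (41.3%), for 10 on P3 (87.5%) and for 10 on P7 (83.2%). The exception was Klf4, which had no peak in replicate 2 of P1, the library with the smallest share of genes with a peak, 43%. The number of listed peaks was 13149 and 14910 at E18.5, 29281 and 19753 on P1, 95257 and 52040 on P3, and 49113 and 35898 on P7, so presence depends on list length.

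When each list was cut to its 13149 peaks of highest score, 8 of the genes kept a peak in both libraries at E18.5, 7 on P1, 1 on P3 and 3 on P7. The shares of all genes tested were then 54.1%, 31.5%, 37.3% and 45.2%. Dusp1 counted on P1 through a peak in replicate 1 at its far annotated starts, which overlap Ergic1, and with those starts left out the P1 count was 6. The gene that kept both on P3 was Klf2, and those on P7 were Btg2, Klf2 and Klf6. These counts depend on the exact cut. Nr4a1 missed it on P3 only in replicate 1, at rank 13151, and Klf4 missed it at E18.5 only in replicate 2, at rank 13178. In replicate 1 of P3, the longest list, 3 of the 10 had such a peak (2 without the far Dusp1 starts) against 40.8% of all genes, and in replicate 2 of P3 there were 7 against 52.7%. With only the upper 0.5 of each list by score, the counts were 6 at E18.5, 6 on P1, 10 on P3 and 9 on P7, against 32.9%, 28.2%, 73.2% and 65.0% of all genes. Dusp1 again counted on P1 only through its far starts. In replicate 1 of P1 its far peak lay at 34.5% of the list, and its best peak near the main start at 54%.

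The position of the peaks differed between the genes. Klf2, Klf6, Btg2 and Nr4a1 had a peak over the 250 bases before the RefSeq start in all 8 libraries. For Klf2 the highest-scoring peak had a fold enrichment of 7.61 and 7.50 at E18.5, 7.25 and 6.55 on P1, 5.10 and 9.59 on P3, and 5.26 and 5.82 on P7. The E18.5 values lay above those of P1 and the P1 values above those of P7, while the P3 values spanned all of them. For Nr4a1, the gene with the lowest postnatal RNA relative to E18.5, it was 6.67 and 5.46 at E18.5, 7.10 and 4.15 on P1, 6.54 and 7.34 on P3, and 4.64 and 4.58 on P7, with no order that held in both libraries of each time point apart from P7 lying below E18.5 and P3. Fold enrichment is relative to the local background of each library and was compared without a test.

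Zfp36, by contrast, had no peak over those 250 bases, which hold its CArG box and EGR site, at E18.5 or P1 and had one in both libraries on P3 and on P7. Those bases lie before the RefSeq start at position 28379228. They fall inside the annotated transcript that begins at 28380253 and carried 93.95% of the gene's FPKM. The E18.5 peaks of Zfp36 had summits 998 to 1835 bp upstream of that annotated start. From the RefSeq start the same summits lay at -2023 to -2860 bp (negative is upstream). Ier2 had no peak within 1000 bp of its start at E18.5, one in 1 library on P1 and one in both on P3 and P7, and its E18.5 peaks had summits 1280 and 1413 bp upstream. Ier3 had peaks just past the end of its gene in all 8 libraries, with summits 1277 to 1848 bp after the start, and a peak at the start itself in 1 library at E18.5, none on P1 and both on P3 and P7. Klf4 had peaks upstream of the start and 1220 to 1404 bp after the start of a shorter annotated transcript. Dusp1 had peaks near its main start in all libraries and, in 6 of 8, a further peak at the far annotated starts, where the first exon of Ergic1 also lies. Within 1000 bp, the counts in both libraries were 7 at E18.5, 6 on P1, 10 on P3 and 10 on P7, against 54.7%, 38.2%, 84.5% and 80.2% of all genes. The peak lists of P3 and P7 were also the longest. When each list was cut to equal length, none of these start peaks of Zfp36, Ier2 and Ier3 on P3 or P7 was kept. Those of Zfp36 ranked 56534 and 36266 on P3 and 21832 and 21819 on P7. The one placed highest, of Ier3 in replicate 1 of P7, ranked 15252. The Ier3 start peak of E18.5 was kept, at rank 12742. Whether these starts opened after birth was therefore not tested. The RNA of Zfp36, Ier2 and Ier3 was lower on P3 than at E18.5 in both libraries.

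**Figure D4:**
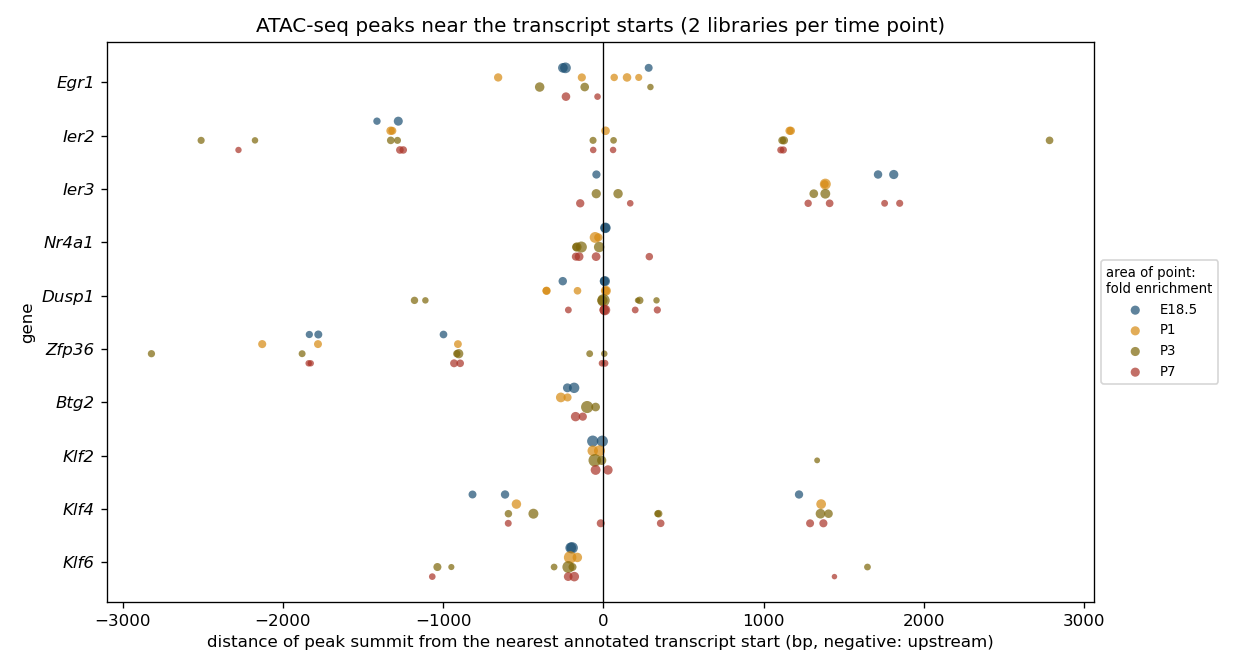
Distance of each peak summit from the nearest annotated transcript start (horizontal axis, bp, negative is upstream) for the 10 genes, with the 2 libraries of a time point in one color and point area proportional to fold enrichment. Klf2, Klf6, Btg2 and Nr4a1 have summits close to 0 at all time points, while the E18.5 summits of Zfp36 and Ier2 lie about 1000 bp or more upstream.

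In the NRVCs the question was whether histone deacetylase inhibition moved these genes. None of the 10 passed the test after TSA, where 2.13% of all genes did, and 9 of 10 had a negative log2 difference, with a median of -0.37 against 0.03 for all genes. At an unadjusted p below 0.05 limma gave 2, Klf2 and Klf4, and limma-voom also gave 2 and called none. Klf2 had an FPKM of 16.3, 17.9 and 22.9 with DMSO and 11.5, 13.1 and 11.9 with TSA, without overlap, and a log2 difference of -0.59 ± 0.14 (adjusted p = 0.0757). Klf4 had 12.8, 13.2 and 14.8 with DMSO and 8.66, 10.6 and 9.89 with TSA (-0.44 ± 0.12, adjusted p = 0.0984). Ier2 was the other gene without overlap, at 24.0, 23.0 and 31.3 with DMSO and 20.8, 22.2 and 19.6 with TSA (-0.30 ± 0.14, adjusted p = 0.294). These 3 of 10 compare with 10.1% of all genes that were lower without overlap. The labels state no pairs, and same-numbered libraries were taken as paired from the data. On that assumption 9 of the 10 were lower with TSA in all 3 pairs, as were 21.5% of all genes, and Egr1 was lower in 1 pair. With the pairs as a block 6 of the 10 had an unadjusted p below 0.05, none passed, and the lowest adjusted p was 0.0705 (limma). The share of all genes at that unadjusted limit was not counted, so these counts have no baseline.

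The libraries of the other 7 rat genes overlapped between the treatments. Egr1 was the one with a positive difference, at 23.0, 22.3 and 31.5 with DMSO and 29.3, 38.2 and 24.6 with TSA (0.25 ± 0.20, adjusted p = 0.555). Ier3 and Btg2 were set apart by replicate 3 in both treatments. Ier3 had 39.5, 36.4 and 88.4 with DMSO and 28.7, 30.1 and 55.6 with TSA, and Btg2 had 18.3, 15.4 and 39.1 against 13.0, 14.8 and 24.6. Without replicate 3 of DMSO the Btg2 difference went from -0.39 ± 0.37 to 0.00. Dusp1 had 23.4, 17.8 and 30.1 with DMSO and 12.0, 13.5 and 25.4 with TSA (-0.50 ± 0.30). Nr4a1, Zfp36 and Klf6 had differences of -0.29 ± 0.23, -0.36 ± 0.15 and -0.22 ± 0.12 with adjusted p of at least 0.258. In rat, the transcripts of Klf6 that began at different sites split its FPKM, 56.5% and 43.5% on average.

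**Figure D5:**
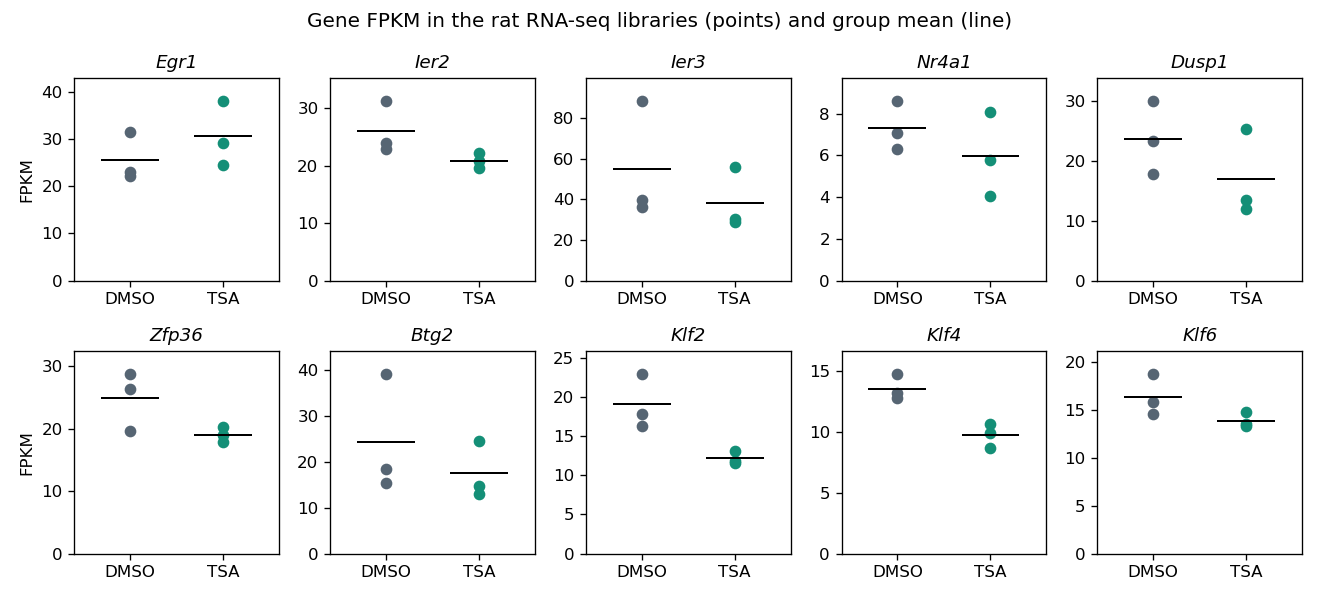
Gene FPKM (vertical axes, linear from 0, scaled separately for each gene) in the 3 rat RNA-seq libraries of each treatment; points are libraries and lines are group means. The TSA points of Klf2, Klf4 and Ier2 lie below all DMSO points, and the other 7 genes overlap.

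Profiles of the genes were also compared with each other in rat. The mouse libraries span ages and the rat libraries span treatments, so the median r of the species are not directly comparable. The 45 pairs had a median r of 0.61 over 6 libraries, 9 of them below 0, and Egr1 and Zfp36 were the least alike at -0.57. The genes most like the mean scaled profile were Aida, S100a3, Lmna, Myo18b and Syde2, with an r of 0.987 to 0.999. Of the other lists, no gene passed the test among 27 other immediate early genes, 20 family relatives, 7 AP1 genes, 16 upstream genes or 9 heat shock genes tested, in limma. At an unadjusted p below 0.05 there were 5, 2, 1, 1 and 0 of them, and limma-voom called 1 gene, of the other immediate early genes. Their median log2 differences were -0.16, -0.06, -0.30, -0.01 and 0.12. Jun and Jund, the AP1 partners of the response, had differences of -0.70 ± 0.31 and -0.80 ± 0.35 with adjusted p of 0.275 and 0.268. Atf3 had the lowest adjusted p of the AP1 genes in limma, 0.0534, with a difference of -0.71 ± 0.15. Among the other immediate early genes, Plk3 stayed under the limit on size at -0.92 ± 0.13 (limma adjusted p = 0.0165).

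Cell type markers in rat had overlapping sums in both treatments for the 9 cardiomyocyte markers, 11892 to 14213 with DMSO and 10804 to 22059 with TSA. The 7 fibroblast markers summed to 6383 to 6930 with DMSO and 3565 to 5965 with TSA, and none passed the test in limma, at an unadjusted p below 0.05 (0 genes) or in limma-voom. The 7 endothelial markers, which bear on Klf2 and Klf4, summed to 14.4 to 20.5 with DMSO and 21.2 to 25.9 with TSA, where Cldn5 rose (1.05 ± 0.16, adjusted p = 0.0224). The 7 smooth muscle and pericyte markers summed to 851.5 to 2177 and 608.4 to 1410, where Rgs5 rose by 1.80 ± 0.18, and the 8 macrophage markers to 489.3 to 1023 and 405.0 to 540.5, with none called by limma or limma-voom and 6 at an unadjusted p below 0.05. The erythroid markers summed to 4.18 to 25.5 and 32.3 to 55.7. The part of these in the results was not tested.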

How the data were processed

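RNA-seq was measured in 8 mouse and 6 rat libraries and ATAC-seq in 8 mouse libraries, while 6 HiChIP libraries were not analysed here. The authors aligned RNA-seq reads with HISAT2 2.1.0 and ran StringTie (1.3.5 for mouse, per the submitters' processing notes) on mm10 with GENCODE vM21 and on Rnor_6.0, and the deposited values are FPKM, TPM and coverage per transcript. ATAC-seq peaks were called by the authors in each library with MACS2, after cutadapt, Bowtie2 and Picard. The deposited peak lists give the authors' score, the fold enrichment as a ratio, and −log10 p and −log10 q.

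Depth was estimated from coverage and FPKM with 150 bp reads, and no counts were used. Gene FPKM was the sum over transcripts. log2(FPKM + 1) was fitted with limma 3.58.1 in R 4.3.3 (trend, two-sided, Benjamini-Hochberg) over all libraries of a species. A fold change on this scale understates the change of low genes. A gene passed at an adjusted p below 0.05 and a log2 difference beyond 1, and the script was tested on simulated data. Counts at an unadjusted p below 0.05 are given without the share of all genes, which was not counted in either species. Peaks counted within 2500 bp of a GENCODE start. Same-numbered rat libraries of both treatments deviated together from their group means (r of 0.22, 0.19 and 0.35 over genes). They were taken as paired from these values alone, all 3 being above 0.1. The labels state no pairs, and libraries of different number were not compared. In mouse, E18.5 with P1 (0.17) and P3 with P7 (0.12) were also above 0.1 and were not paired.

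The 10 genes and all lists were chosen with earlier results of these data known. All 10 genes are named, with up to 4 genes of a list per comparison, by the largest difference among those that passed, where a list is described gene by gene, and the 5 genes of highest correlation in each species. Genes named with differences that did not pass, and list genes beyond these, were chosen after their values were seen. The alternatives were a pseudocount of 0.1, no filter, a floor of 5 on the mean FPKM, TPM values, scaling by median of ratios, limma-voom on reads estimated from coverage, a replicate block, only the 2 time points compared, each library left out, and for peaks equal list lengths, the upper 0.5 of each list, 1000 bp, midpoints and RefSeq mRNA starts.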

Additional observations from a re-analysis of the deposited data

How the results depend on the processing

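Of the counts of genes that passed against E18.5, none moved by more than 1.5 times under the alternatives run, and ranges without one library were 7 to 7 at P1, 6 to 8 at P3 and 5 to 5 at P7. Between P1 and P7, 1 gene passed, 2 did with a pseudocount of 0.1 and with limma-voom, and 0 to 2 without one library; the added gene was Nr4a1, and the cause was not tested. In that comparison the uncalled differences of Egr1 (-0.29 to 1.02), Btg2 (-0.14 to 0.36), Klf2 (-0.12 to 0.15) and Klf4 (-0.13 to 0.66) changed sign without one library. The Egr1 difference on P1 ranged from -2.76 to -1.45 without one library. In rat 0 genes passed under every alternative. Without replicate 1 or without replicate 2 of TSA, no gene among all those tested passed, so these settings could not separate the 10 genes from the rest. Genes with a peak in both libraries went from 10 to 6 at E18.5 with the upper 0.5 of each list, from 10 to 1 at P3 and from 10 to 3 at P7 with equal list lengths, where fewer peaks are kept by construction. The P3 count left out Nr4a1, which ranked 13151 in replicate 1 against a cut of 13149. Leaving out the far Dusp1 starts as well, chosen after seeing the data, gave 8, 6, 1 and 3 on the 4 time points. The replicate block changed no call, and in rat the lowest adjusted p with it was 0.0705. In mouse, same-numbered libraries had correlations of deviations of -0.10 to 0.17 and, as in rat, are tied by number alone in the labels. With 2 libraries per time point, leaving 1 out assumes that the lone library varies like the other groups.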
